A study of Mus musculus with 33 samples.

Results

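Il10, Il10ra, Il10rb, Tgfb1, Tgfbr1, Tgfbr2, Tgfbi and Smad7 were followed across cell types, tissues and sorts of a mouse single-cell RNA-seq series. They were taken by name as genes of interleukin-10 (IL-10) and transforming growth factor beta (TGF-beta) signalling, and they make up 8 of the 32285 genes in the deposited tables. The series, named SAMENT by its submitters, collected cells that carried a biotin tag after overnight substrate labelling, here called tagged, and cells from the same kind of tissue without it, here called untagged. After an intracardiac injection, bone (femurs and tibias), brain, liver and lung each gave 4 tagged and 4 untagged samples, 32 in all. After an injection that the labels name only as IIA, 1 pooled bone library held 6 tagged and 6 untagged hashtagged samples, numbered by injection. The hashtags are named differently in the matrix and in the deposited key and were matched by their number alone, so every IIA sort and injection number rests on that match. The labels used here give no strain, genotype, age, sex or tumour line for any group. They do not say whether samples came from separate animals, so the p-values measure the spread between these samples. All samples had been digested with collagenase A. Every group had received an injection, so no group is an uninjected control.

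IL-10 is a cytokine secreted by macrophages, T cells and B lineage cells. It binds a receptor of a ligand-binding chain, encoded by Il10ra and largely restricted to blood cells, and a shared chain, encoded by Il10rb and widely expressed, which together signal through JAK1, TYK2 and STAT3 and restrain inflammatory gene expression in macrophages. TGF-beta1, the product of Tgfb1, is secreted in a latent form and, once activated, binds the type II receptor TGFBR2, which recruits and phosphorylates the type I receptor TGFBR1. TGFBR1 then phosphorylates SMAD2 and SMAD3. SMAD7 is an inhibitory SMAD that binds the type I receptor and is itself induced by the pathway, and TGFBI is a secreted matrix protein first found as a TGF-beta induced product. Microglia and alveolar macrophages depend on TGF-beta signalling for their mature state.

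In the RefSeq annotation of mouse build GRCm38 the protein-coding genes lie as follows: Il10 at chr1:131019845-131024970, Tgfbr1 at chr4:47353222-47414926, Tgfb1 at chr7:25687002-25705077, Il10ra at chr9:45253837-45269149, Tgfbr2 at chr9:116087695-116175363, Tgfbi at chr13:56609586-56639359 and Il10rb at chr16:91406157-91425834. The sequence table held promoters for Tgfb1, Tgfbr1, Tgfbr2 and Tgfbi, and the last 3 are shown because these genes differed between tagged and untagged phagocytes of lung and brain, the receptors upward and Tgfbi downward. Each run is the 250 bases before the annotated start in RefSeq GRCm38.p6, written 5′ to 3′ on the gene's own strand, with capitals marking matches on either strand to GAGGAA (a purine-rich core bound by PU.1), GGGCGG (a GC box), TATAAA or TTCNNNGAA (a STAT-type palindrome).
Tgfbr1, chr4:47352972-47353221, plus strand: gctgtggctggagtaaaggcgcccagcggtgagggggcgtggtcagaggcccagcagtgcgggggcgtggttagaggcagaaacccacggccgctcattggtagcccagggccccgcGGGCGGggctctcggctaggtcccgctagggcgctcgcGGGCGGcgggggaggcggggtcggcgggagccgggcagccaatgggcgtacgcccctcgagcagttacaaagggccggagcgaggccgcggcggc
Tgfbr2, chr9:116175364-116175613, minus strand: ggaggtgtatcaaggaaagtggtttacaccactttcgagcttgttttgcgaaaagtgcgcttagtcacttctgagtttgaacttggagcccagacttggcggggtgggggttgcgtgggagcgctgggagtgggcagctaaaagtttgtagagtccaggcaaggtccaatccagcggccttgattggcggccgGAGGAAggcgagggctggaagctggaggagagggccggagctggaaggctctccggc
Tgfbi, chr13:56609336-56609585, plus strand: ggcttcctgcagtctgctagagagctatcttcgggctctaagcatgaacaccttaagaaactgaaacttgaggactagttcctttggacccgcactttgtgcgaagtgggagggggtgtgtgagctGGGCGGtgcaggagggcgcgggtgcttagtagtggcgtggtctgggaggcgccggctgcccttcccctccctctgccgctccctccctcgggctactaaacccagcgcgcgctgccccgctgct
The Tgfbr1 window shown, before the first of 2 listed starts, held GGGCGG at 2 places, the Tgfbr2 window held GAGGAA at 1 place and the Tgfbi window held GGGCGG at 1 place. The window before the other Tgfbr1 start, chr4:47385966-47386215, held GAGGAA at 1 place and GGGCGG at 0. Among 32841 promoter windows of the same length, 23.3% held GAGGAA, 32.7% held GGGCGG, 12.4% held TATAAA and 7.02% held TTCNNNGAA, so the matches are common ones and describe the letters only.

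The intracardiac samples kept 55366 cells, 94 to 3505 per sample, with 482617 to 44834664 unique molecular identifiers (UMIs, each counted as 1 captured transcript) per sample. The IIA samples kept 22362 cells, 249 to 3480 per sample. Cells were clustered with the 8 genes held out, and clusters were named by marker genes: 31 of 36 intracardiac and 21 of 26 IIA clusters could be named, and the names mean that a cluster resembles that type. Among the unnamed was a myeloid cluster with Pf4 and Spp1 among its leading genes, called cluster 18 here. Libraries with the same replicate number shared 0 cell barcodes over 112 pairs, libraries with different numbers shared 341 over 384 pairs, and the IIA pool shared 39 with the intracardiac libraries over 32 pairs. Levels are in CPM, the gene's UMI count scaled to a common total per sample, and are compared within a gene and never between genes. The tests scaled samples by a different factor (TMM), so a log2 difference need not match the ratio of the CPM values.

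Across the intracardiac cell classes, Il10ra, Tgfbr1, Tgfbr2 and Smad7 were highest in microglia, Il10rb in macrophages, Tgfb1 in alveolar macrophages, Tgfbi in cluster 18 and monocytes, and Il10 in plasma cells. Tgfbr1 reached 654 ± 135 CPM in microglia (SD, n = 3 samples with at least 20 such cells), followed by 162 ± 11.7 in alveolar macrophages (n = 5) and 127 ± 61.5 in other macrophages (n = 17). The step from microglia to alveolar macrophages was the only 1 of the 19 steps between neighbouring classes that exceeded the larger SD of the pair for Tgfbr1. Tgfbr2 was spread more widely, at 246 ± 8.22 CPM in microglia, 223 ± 107 in endothelial cells (n = 9), 196 ± 18.2 in alveolar macrophages, 144 ± 71.7 in macrophages, 118 ± 34.8 in B cells (n = 26) and 106 ± 30.8 in T cells (n = 26). None of these neighbours differed beyond their spread. Monocytes (n = 23) held far less of both receptors, 29.9 ± 10.6 CPM of Tgfbr1 and 33.8 ± 10.0 of Tgfbr2.

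Il10ra was likewise highest in microglia, at 187 ± 35.01 CPM, beyond the spread of nonclassical monocytes at 106 ± 35.2 (n = 20) and macrophages at 104 ± 35.8. It was 52.5 ± 28.1 in neutrophils (n = 31), 8.92 ± 7.87 in immature neutrophils (n = 20) and 0.854 ± 0.761 in early granulocyte precursors (n = 9). Il10rb, the shared chain, changed in small steps from 152 ± 62.2 CPM in macrophages to 24.0 ± 4.16 in early granulocyte precursors, and 0 of its 19 neighbouring steps exceeded the spread. Tgfb1 was present in every class, from 330 ± 26.1 CPM in alveolar macrophages to 38.4 ± 12.1 in neutrophils and 22.1 ± 11.6 in plasma cells (n = 4).

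Smad7, at chr18:75367365-75395935, varied widely among the phagocytes. It stood at 263 ± 75.9 CPM in microglia, 224 ± 64.3 in endothelial cells, 220 ± 68.4 in T cells and 176 ± 84.1 in NK cells (n = 13), against 51.7 ± 40.7 in macrophages, 14.96 ± 5.54 in monocytes and 7.01 ± 4.10 in alveolar macrophages, the lowest of 20 classes. Tgfbi was high where Smad7 was low in monocytes and the reverse in microglia, at 1089 ± 396 CPM in cluster 18 (n = 16), 943 ± 120 in monocytes, 425 ± 159 in macrophages, 385 ± 73.6 in neutrophils and 55.7 ± 19.0 in microglia, and the step from monocytes to macrophages exceeded the spread. Lymphocytes held 14.4 to 29.8 CPM of Tgfbi on average. In the IIA samples the order differed for some genes: Il10ra was highest in nonclassical monocytes, at 326 ± 85.6 CPM (n = 5), Tgfbr2 in B cells, at 236 ± 44.0 (n = 6), and Smad7 in T cells, at 129 ± 45.5 (n = 6), each beyond the spread of the class below it. The ranking leaves out classes with fewer than 3 samples of at least 20 cells, such as IIA osteoclasts. The IIA library was a 5′ assay and the others 3′ assays, so levels are not set against each other across the experiments.

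**Figure D1:**
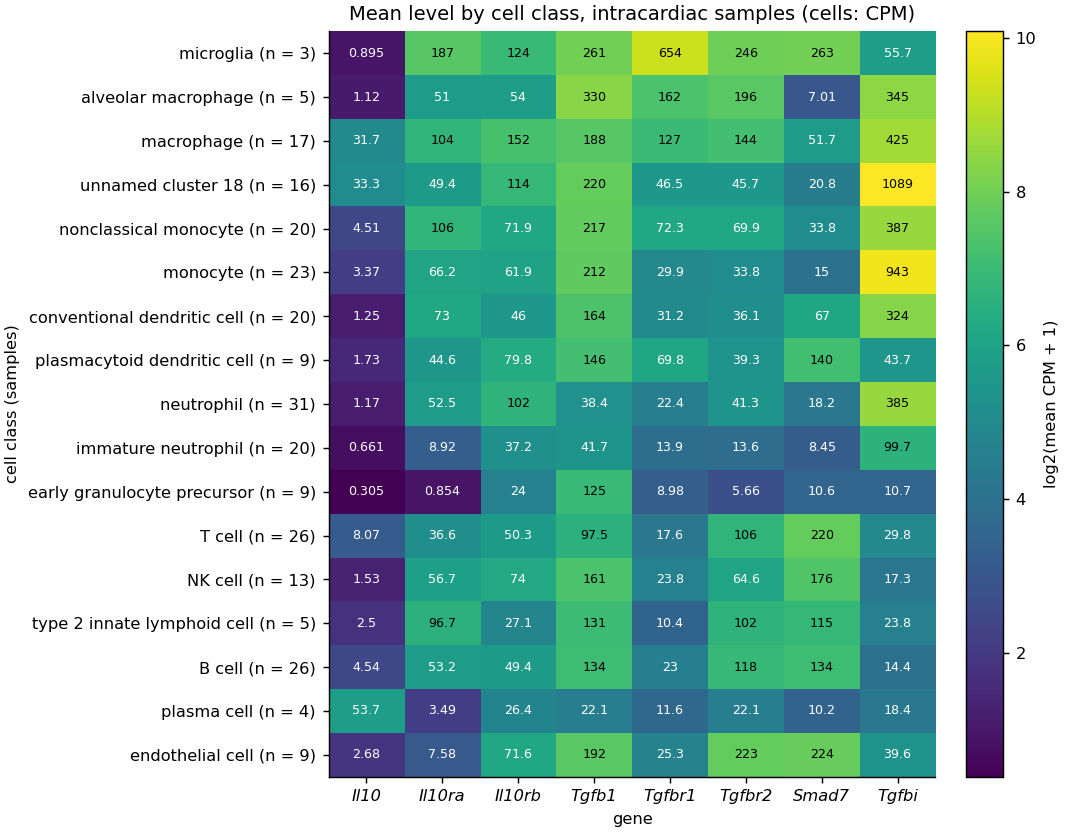
Mean level of each gene (columns) in each named cell class and unnamed cluster 18 (rows) of the intracardiac samples, as CPM printed in the cells, with colour on a log2(CPM + 1) scale; n is the number of samples with at least 20 cells of the class. Microglia stand out for Tgfbr1 at 654 CPM, monocytes and cluster 18 for Tgfbi at 943 and 1089 CPM.

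Il10, the ligand, was rare and came from few cells in few samples. Summed over all cells of a sample, it read 2.34, 37.9, 0.421 and 0.146 CPM in tagged bone replicates 1 to 4 and 0.852, 2.91, 1.56 and 0.178 in untagged bone. Tagged liver gave 0.471, 57.2, 3.77 and 2.07 and untagged liver 0.756, 7.17, 4.05 and 5.01. In bone and liver tagged replicate 2 stood far above every other sample, and the remaining tagged and untagged samples overlapped. Tagged lung gave 39.1, 9.68, 4.997 and 5.45 CPM against 3.11, 6.63, 10.8 and 8.96 in untagged lung. Tagged brain gave 0.433, 17.1, 7.53 and 0.457 against 0.8097, 3.69, 3.22 and 0.872. Lung tagged replicate 1 was the high sample there, and in brain tagged replicates 2 and 3 were above the untagged ones while replicates 1 and 4 were below all of them. None of the 4 intracardiac differences passed the test, which was edgeR's quasi-likelihood test over all genes with Benjamini-Hochberg adjustment (log2 differences of 0.73 ± 0.64 SE in lung, 1.71 ± 1.19 in liver, 1.27 ± 1.07 in brain and 2.56 ± 1.44 in bone, with adjusted p = 0.44, 0.558, 0.53 and 0.641).

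In the IIA samples Il10 was higher in the tagged sort. Tagged injections 1 to 6 read 5.21, 11.5, 34.6, 0.465, 1.398 and 1.85 CPM and untagged ones 0, 0.554, 2.86, 0.0789, 0.554 and 0.354, so the groups overlapped but the tagged sample was higher in 6 of 6 injections. Il10 rose by 3.52 ± 1.08 on the log2 scale (edgeR adjusted p = 0.0167), in a comparison where 50.2% of 12625 genes were called. Without tagged injection 3 the difference was 2.30 and the adjusted p 0.0608, and no other left-out sample ended the call.

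In the samples with most Il10, the UMIs lay mainly in macrophages or in cluster 18. In tagged bone replicate 2, 270 of the sample's 343 Il10 UMIs lay in 42 of 350 macrophages, 12% of them (95% exact binomial interval 8.79 to 15.9%, counting error only, median 2131 UMIs per cell). Tagged liver replicate 2 had 393 of 401 Il10 UMIs in 130 of 835 macrophages, 15.6% (13.2 to 18.2%, median 6275 UMIs). Tagged lung replicate 1 had 921 of 953 in 120 of 471 cells of cluster 18, 25.5% (21.6 to 29.7%, median 10705 UMIs). Neutrophils and immature neutrophils, taken as the background of free RNA, showed an Il10 UMI, in the intracardiac samples, in 0.287%, 1.76%, 0.236% and 0.0628% of cells for replicate numbers 1 to 4, at median depths of 6049.75, 5758.75, 5549.5 and 8317 UMIs. The shares in these 3 samples were above that background, which was itself highest in the samples numbered 2. In tagged brain replicate 2, 19 of 545 macrophages had an Il10 UMI, 3.49% (2.11 to 5.39%, 20.6 CPM), against 1.76% (1.43 to 2.14%, 2.86 CPM) of the neutrophils of that number. The ends of these 2 intervals touch. In tagged bone replicate 1 no macrophage had one, and 35 of 46 Il10 UMIs lay in 3 of 88 cells of cluster 18.

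Pooled over samples, macrophages held 68.0% of 397 Il10 UMIs in tagged bone, 87.0% of 69 in tagged brain, 93.8% of 420 in tagged liver and 94.4% of 337 in tagged IIA bone, and cluster 18 held 88.5% of 1241 in tagged lung. Most of the UMIs behind each share came from 1 sample. Without it the share was 0% in bone and 5.26% in liver, but 92.0% in IIA bone, 71.4% in brain and 61.5% in lung. Leaving out the sample with most Il10, macrophages held 0 of 54 UMIs in tagged bone, 1 of 19 in liver, 10 of 14 in brain and 104 of 113 in IIA bone, and cluster 18 held 177 of 288 in lung. Untagged samples had a different mix. In untagged liver, macrophages held 12.9% of 170 Il10 UMIs, yet read 40.3 ± 48.7 CPM over 3 samples against 22.5 ± 38.0 over 3 tagged ones. Untagged liver replicate 2 was at 94.4 CPM, from 2 of 31 macrophages, against 66.4 in tagged replicate 2. In brain and IIA bone the tagged macrophages read higher, 20.5 against 1.63 and 47.6 against 3.83 CPM. T cells held 33.9% and plasma cells 23.2% of the 354 Il10 UMIs of untagged lung, where 17 of 38 plasma cells of replicate 4 (44.7%, 28.6 to 61.7%) and 9 of 25 of replicate 3 (36%, 17.97 to 57.5%) had one. T cells held 58.1% of the 43 UMIs in untagged IIA bone, but 22 of those came from 1 of the 108 T cells of injection 3. Within joined mononuclear phagocytes (monocytes, nonclassical monocytes, macrophages, microglia and alveolar macrophages) of IIA bone, tagged injections read 39.04, 20.1, 87.8, 7.34, 39.9 and 31.4 CPM and untagged ones 0, 0.995, 0.864, 0, 2.36 and 0.497. These groups did not overlap, and Il10 rose by 5.71 ± 0.58 on the log2 scale (edgeR adjusted p = 4.95e-06, 29.1% of 9476 genes called). In the intracardiac phagocytes Il10 was too rare to be tested in bone and brain. Liver read 0.361, 65.04 and 0 CPM in tagged and 0.645, 8.54, 5.48 and 0 in untagged samples (log2 difference 2.38 ± 1.30, adjusted p = 0.255). Lung read 0 to 4.64 and 0.617 to 11.1 (-1.33 ± 0.72, adjusted p = 0.154). With the replicate number as a block, though not taken as pairs in lung, the lung difference was -1.72 (edgeR adjusted p = 0.00209). With cluster 18 counted among the phagocytes, the lung difference turned to 1.21 ± 0.72 (adjusted p = 0.212), and Il10 could be tested in bone, at 3.28 ± 1.00 (edgeR adjusted p = 0.0972). Bone then read 11.3, 114, 0 and 0 CPM in tagged and 1.05, 8.55, 5.001 and 0 in untagged samples, so the sorts overlapped and tagged replicate 2 was the high one. It passed with the replicate number as a block (2.88, adjusted p = 0.0286, 4.66% of all genes called) and not with DESeq2 (adjusted p = 0.513).

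**Figure D2:**
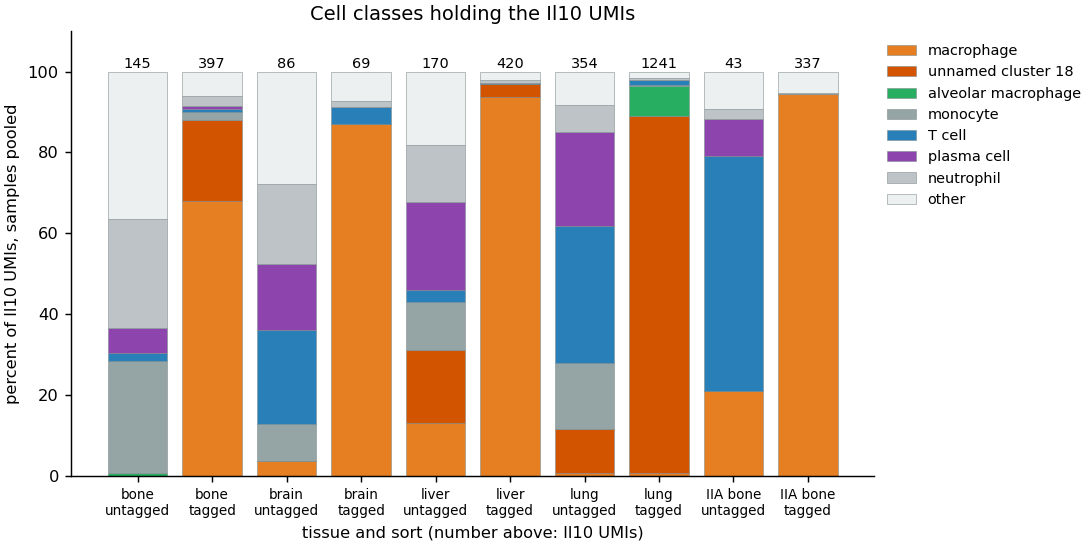
Share of Il10 UMIs (vertical axis, percent, samples pooled) held by each cell class in each tissue and sort, with the number of Il10 UMIs above each bar. Macrophages hold 68.0 to 94.4% in tagged bone, brain, liver and IIA bone, and cluster 18 holds 88.5% in tagged lung. The bone and liver shares rest on tagged replicate 2, without which macrophages hold 0 of 54 and 1 of 19 UMIs.

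Neither IL-10 receptor chain passed the test between the sorts over all cells of any tissue in edgeR without a block. Il10ra ranged from 57.6 to 72.8 CPM in tagged and 56.4 to 83.8 in untagged lung, 31.1 to 102 and 33.98 to 60.4 in liver, 28.8 to 106 and 21.7 to 71.4 in brain, and 6.103 to 37.9 and 8.21 to 34.05 in bone. The groups overlapped in each of these tissues, and the 95% intervals of the log2 difference were -0.77 to 0.04 in lung, -0.72 to 0.67 in liver, -0.46 to 1.49 in brain and -1.09 to 0.95 in bone. For Il10rb these intervals were, in the same order, -0.80 to 0.21, -0.36 to 1.04, -0.03 to 1.12 and -0.58 to 0.42. In IIA bone, Il10ra read 20.3, 46, 41.8, 20.5, 6.84 and 7.403 CPM in tagged and 39.9, 60.5, 34.9, 43.1, 32.1 and 18.4 in untagged injections, a log2 difference of -0.92 ± 0.46 (adjusted p = 0.112). The tagged sample was higher in 1 of 6 injections, and with the injection number as a block Il10ra passed the test (-1.18, edgeR adjusted p = 0.0145, 49.1% of all genes called).

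Tgfb1 was higher in the tagged sort of IIA bone and not detectably so elsewhere. Tagged injections read 143, 176, 151, 187, 184 and 185 CPM and untagged ones 118, 122, 119, 110.4, 106 and 95.04, with no overlap. The rise was small, 0.37 ± 0.09 on the log2 scale (edgeR adjusted p = 0.0042), and it held in 17 of 17 alternative settings. Early granulocyte precursors held 52.2% of the Tgfb1 UMIs of tagged IIA bone, whereas monocytes held the largest part, 20.8%, of the untagged ones. These shares are pooled over samples. Tagged injection 5 held 27903856 kept UMIs, against 2149784 to 6476406 in the other tagged injections, so the tagged share weighs that injection most. In the intracardiac tissues the 95% intervals of the Tgfb1 difference were -0.07 to 0.78 in lung, -0.69 to 0.33 in liver, -0.20 to 0.58 in brain and -0.16 to 0.45 in bone. Tgfb1 passed the test in no fit of joined phagocytes, where brain, for example, was at 0.02 ± 0.20.

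Tgfbr1 was higher in tagged lung. In brain both TGF-beta receptors missed the threshold in edgeR and passed it with the replicate numbers paired and with DESeq2, and Tgfbr1 also without the filter on low counts (adjusted p = 0.0313) and without the cells with the highest doublet scores (0.0475). Summed over all cells, Tgfbr1 read 108, 145, 88.04 and 62.4 CPM in tagged lung replicates 1 to 4 and 26.6, 33.2, 28.6 and 22.1 in untagged lung. Brain read 60.03, 101, 236 and 314 in tagged against 20.5, 38.6, 39.5 and 18.2 in untagged brain. Neither pair of groups overlapped. In lung Tgfbr1 rose by 1.58 ± 0.25 on the log2 scale (edgeR adjusted p = 0.00468), in 13 of 13 alternative settings, with 2 of the 8 genes called against 18.3% of 12331 genes. In brain edgeR called 0 of the 8 without the block, with 2 of the 8 at an unadjusted p under 0.05, and DESeq2 called 2. The log2 difference there was 2.31 ± 0.53 (adjusted p = 0.0533) for Tgfbr1 and 1.36 ± 0.38 (adjusted p = 0.0866) for Tgfbr2. With the replicate number as a block, these were 2.10 (adjusted p = 0.0409) and 1.49 (adjusted p = 0.0197), and the share of all brain genes called rose from 3.06% to 6.89%. Tgfbr2 read 83.9, 158, 124 and 133 CPM in tagged brain and 19.6, 56, 56.6 and 25.1 in untagged brain, again with no overlap.

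Where these receptor UMIs came from differed by tissue. Microglia held 76.1% of the Tgfbr1 UMIs of tagged brain and alveolar macrophages held 84.5% of those of tagged lung, while Tgfbr2 in tagged brain was split between macrophages, 44.2%, and microglia, 34.5%. In sums over all cells, more cells of a type and more RNA per cell cannot be told apart. In bone and liver the receptors did not pass the test: 0 of the 8 genes were called by edgeR in either tissue (0.0% of 12533 and of 11854 genes), with 0 and 1 of the 8 at an unadjusted p under 0.05. DESeq2 called 0 of the 8 in bone and 1 of the 8, Tgfbi, in liver, where it called 431 genes. Tgfbi read 365, 312, 294 and 245 CPM in tagged and 553, 588, 530.3 and 309 in untagged liver (log2 difference -0.89 ± 0.21, edgeR adjusted p = 0.15). Tgfbr2 in lung read 112, 182, 112 and 79.4 against 84.95, 58.4, 70.7 and 46.1 CPM, overlapping at 1 sample of each sort, with a log2 difference of 0.64 ± 0.24 (adjusted p = 0.089). In bone the intervals were -0.51 to 0.73 for Tgfbr1 and -0.88 to 0.83 for Tgfbr2, and in IIA bone -0.23 to 0.57 and -0.96 to 0.54.

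**Figure D3:**
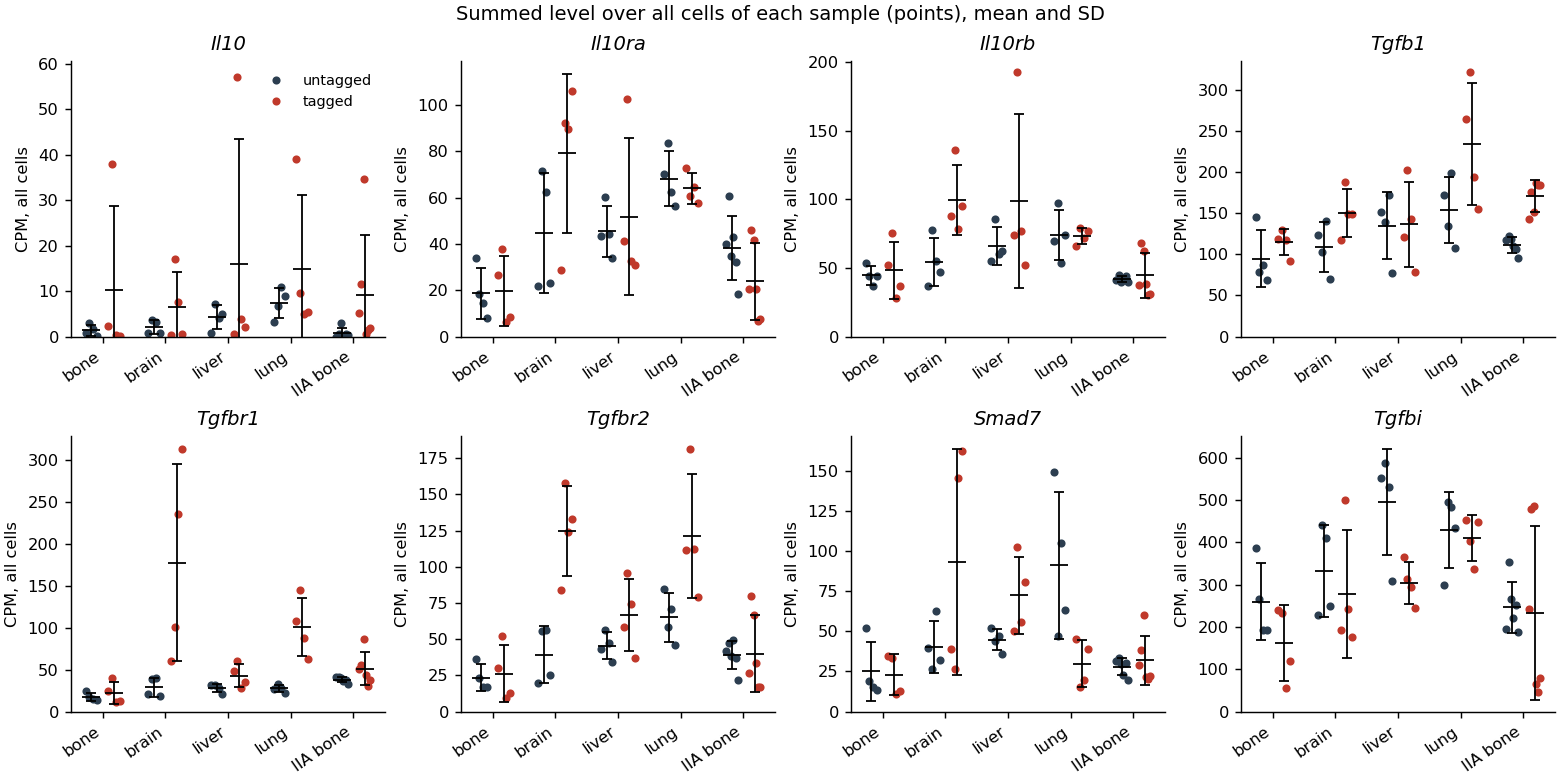
Level over all cells of each sample in CPM (vertical axes, a scale per gene) by tissue, with untagged samples in dark blue, tagged samples in red and the mean and SD as bars. Tagged lung lies above untagged lung for Tgfbr1 and below it for Smad7, and 1 tagged sample each in bone, liver and lung stands high for Il10.

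Over all cells, Smad7 was lower in tagged than in untagged lung. It read 45.3, 15.1, 19.7 and 38.8 CPM in tagged and 149, 47.2, 105 and 63.02 in untagged lung, with no overlap, and it fell by 1.82 on the log2 scale (SE 0.42, edgeR adjusted p = 0.0197). Leaving out untagged replicate 1, untagged replicate 3 or tagged replicate 3 gave adjusted p-values of 0.0609, 0.0517 and 0.0532. T cells, which carry much Smad7, held 53.3% of the Smad7 UMIs of untagged lung, and the largest holder in tagged lung was endothelial cells with 26.2%. These are pooled shares, and only 2 of the 4 tagged lung samples held at least 10 endothelial cells. The sort difference in lung was itself set against the mean of the other 3 tissues, in a fit of all 32 samples where 2.54% of 13963 genes were called, and for Smad7 it was lower by 2.17 ± 0.55 (log2 difference -2.17, edgeR adjusted p = 0.0304). Brain ran the other way without passing the test over all cells: tagged replicates read 38.8, 26.8, 145 and 162 CPM, 2 of them above every untagged one, and untagged replicates 39.7, 26.6, 62.6 and 31.8 (0.94 ± 0.56, adjusted p = 0.372). The difference of lung from the other tissues lost its call without lung untagged replicate 1 or 3 or tagged replicate 2 or 3, with an adjusted p of up to 0.137.

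Within joined mononuclear phagocytes, Tgfbr2 was higher in the tagged sort in every intracardiac tissue. It read 76.7, 164, 62.4 and 75.5 CPM in tagged and 31.4, 29.7, 45 and 35.6 in untagged bone. Tagged and untagged brain read 247, 172, 229 and 222 against 32.5, 65.5, 53.2 and 36.4, and lung 162, 209, 173 and 155 against 40.6, 47.9, 46.4 and 29.9. In liver, where tagged replicate 4 had too few phagocytes and was left out, it read 76.6, 101 and 85.05 against 35.1, 42.7, 37.4 and 37.1. The sorts did not overlap in any of the 4 tissues. The log2 rise was 1.76 ± 0.17 in lung (adjusted p = 4.54e-05), 0.93 ± 0.17 in liver (0.0298), 1.93 ± 0.24 in brain (0.000577) and 1.36 ± 0.28 in bone (0.0259), all from edgeR. The background of called genes in these fits was 47.3% of 10030 in lung, 5.44% of 9942 in liver, 36.9% of 9344 in brain and 2.73% of 8521 in bone. The bone call was lost without untagged replicate 1, 2 or 4 (adjusted p = 0.0786, 0.0717 and 0.0641), and the liver call without any 1 of its 7 samples other than tagged replicate 1 (up to 0.079). With cluster 18 counted among the phagocytes the liver difference was 0.95 ± 0.18, which missed the threshold in edgeR (0.0543) and passed with the replicate number as a block (0.0369) and with DESeq2 (0.00366). IIA bone read 31.2, 78.97, 78.3, 294, 68.9 and 97.3 CPM in tagged and 31.5, 38.8, 25.05, 54.9, 28.3 and 25.4 in untagged injections, with 1 tagged value among the untagged ones and a rise of 1.41 ± 0.33 (adjusted p = 0.00475).

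Tgfbr1 also rose in tagged phagocytes of brain, lung and IIA bone. It read 221, 113, 479 and 620.0 CPM in tagged brain against 35.7, 80.4, 70.99 and 62.1 in untagged brain. Lung read 163, 164, 147 and 130.2 in tagged against 31.5, 49.7, 39.4 and 35.1 in untagged lung. IIA bone gave 80.03, 67.9, 106, 147, 70.1 and 119 and 46.6, 54.8, 49.2, 37.7, 44.3 and 43.3. None of the 3 pairs of groups overlapped, with log2 differences of 2.22 ± 0.48 (edgeR adjusted p = 0.00608), 1.64 ± 0.15 (4.22e-05) and 1.08 ± 0.16 (0.000167). In bone the difference was 0.70 ± 0.26 (adjusted p = 0.161) and in liver 0.53 ± 0.23 (0.173), with intervals of 0.20 to 1.20 and 0.07 to 1.00.

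Tgfbi went the other way in lung and brain phagocytes. Tagged lung read 313, 386, 287 and 438 CPM against 717, 1024, 825 and 948 in untagged lung, a fall of 1.62 on the log2 scale (log2 difference -1.62 ± 0.17, edgeR adjusted p = 7.37e-05). Tagged brain read 453, 563, 236 and 128 against 686, 885, 715 and 726, a log2 difference of -1.38 ± 0.41 (adjusted p = 0.0234) that missed the threshold without untagged replicate 4 or tagged replicate 3. In bone and liver the sorts did not overlap either, at 360.4 to 686 CPM in tagged and 699.9 to 948 in untagged bone and 301 to 673 and 811 to 1071 in liver, but the test was not passed (log2 difference -0.61 ± 0.25, adjusted p = 0.201, and -1.32 ± 0.35, adjusted p = 0.0584). DESeq2 called the liver difference (adjusted p = 0.00303) and not the bone one (0.209). In IIA bone the sorts overlapped, at 338 to 1429 CPM in tagged and 763 to 1185 in untagged injections, with a log2 interval of -0.62 to 0.35.

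Smad7 and Il10rb rose in tagged brain phagocytes and fell in tagged lung phagocytes, and Il10ra fell in the latter. Smad7 read 59.4, 19.4, 169 and 278 CPM in tagged and 13.3, 16.9, 16.8 and 28.7 in untagged brain, a log2 rise of 2.46 ± 0.67 (edgeR adjusted p = 0.0172). It read 13, 10.6, 9.27 and 7.96 in tagged and 19.2, 21.3, 17.3 and 18.2 in untagged lung, where it fell by 1.16 (log2 difference -1.16 ± 0.18, adjusted p = 0.000607). With cluster 18 counted among the lung phagocytes, Smad7 fell by less (-0.63 ± 0.21, edgeR adjusted p = 0.0381), and 5 of 11 alternatives kept that call. In liver it rose by 1.57 ± 0.35 (adjusted p = 0.0412), from 21.7, 20.7, 32.3 and 12.4 to 42.3, 110.2 and 95.95 CPM, a call lost without any 1 of the 7 samples other than tagged replicate 1 (up to 0.134). With cluster 18 included it was 1.41 ± 0.34, which missed the threshold in edgeR without and with the block (0.0771 and 0.0948) and passed with DESeq2 (0.0105). The brain rise was lost without untagged replicate 1, untagged replicate 3 or tagged replicate 4 (adjusted p of up to 0.0575). Il10rb rose in tagged brain phagocytes by 1.02 ± 0.26 (adjusted p = 0.0123), at 96.2 to 238 CPM in tagged and 50.4 to 79.9 in untagged samples, and in IIA bone by 0.88 ± 0.19 (0.00285). The IIA sorts overlapped for Il10rb, at 47.1 to 169 CPM in tagged and 46.2 to 65.96 in untagged injections. In bone and liver phagocytes Il10rb was separate between the sorts too, at 96.6, 186, 87.3 and 64.8 CPM in tagged and 55.3, 56.8, 60.2 and 51.1 in untagged bone and 78.8, 208 and 150.5 and 53.6, 73.6, 54.2 and 55.6 in liver, but missed the threshold (0.90 ± 0.25, adjusted p = 0.0824, and 1.00 ± 0.29, adjusted p = 0.0689). DESeq2 called Il10rb in liver (adjusted p = 0.0339) and not in bone (0.059). In lung phagocytes Il10ra was lower in the tagged sort, 78.7, 62.5, 54.8 and 62.2 against 90.2, 93.2, 72.8 and 74.9 CPM (log2 difference -0.67 ± 0.16, adjusted p = 0.00571). Il10rb there overlapped, at 50.6 to 65.5 CPM in tagged and 50.2 to 85.9 in untagged lung (-0.56 ± 0.18, adjusted p = 0.0246), a call lost without untagged replicate 1 or 2 or tagged replicate 1 and with cluster 18 included. The CPM means in lung, 64.5 against 82.8 for Il10ra and 59.0 against 69.5 for Il10rb, lay closer together than these log2 differences, which use the scaling of the test.

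The difference between tissues in these phagocyte effects was tested against the mean of the other 3 tissues, a test added after the calls above had been seen. The brain effect was larger for Smad7, by 2.31 ± 0.54 (edgeR adjusted p = 0.00773), and for Tgfbr1, by 1.33 ± 0.38 (0.0295), with 7.3% of 11819 genes called. The lung effect was lower for Smad7, by -2.54 ± 0.55 (adjusted p = 0.00216), Il10rb, by -1.48 ± 0.30 (0.00129), and Il10ra, by -1.01 ± 0.27 (0.0125), with 13.6% called. The Tgfbr1 call in brain was lost without brain untagged replicate 1 or 4 or tagged replicate 3 or 4 (adjusted p of up to 0.148) and the brain Smad7 call without tagged replicate 4 (0.0754). The 3 lung calls each held in 36 of 36 settings. For Tgfbr2 no tissue passed this test, and the intervals were -0.08 to 0.92 in lung, -1.29 to -0.20 in liver, 0.14 to 1.15 in brain and -0.84 to 0.20 in bone.

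**Figure D4:**
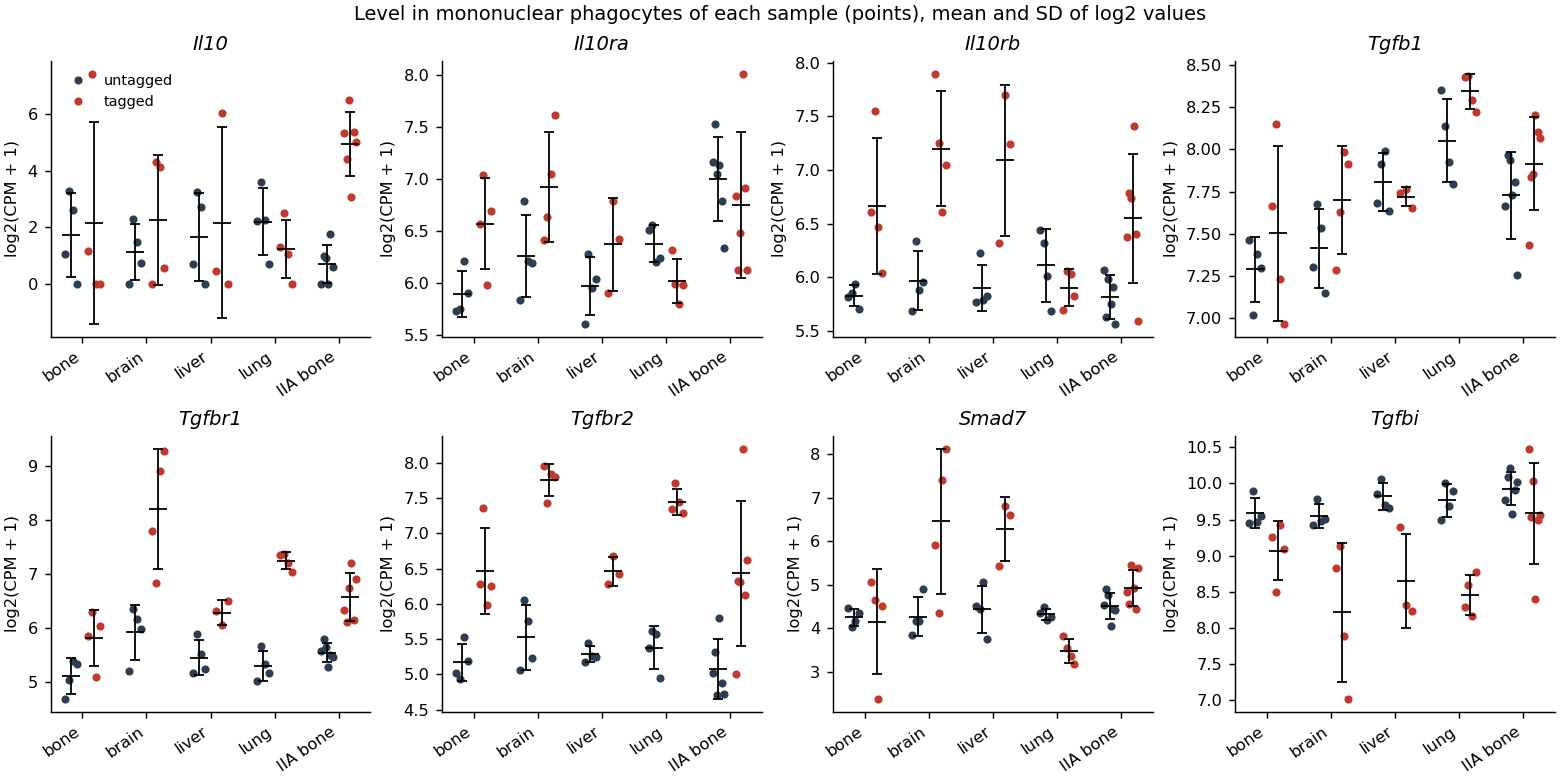
Level in the mononuclear phagocytes of each sample as log2(CPM + 1) (vertical axes, a scale per gene) by tissue, with untagged samples in dark blue, tagged samples in red and the mean and SD of the log2 values as bars. Tagged points lie above untagged points for Tgfbr2 in bone, brain, liver and lung and below them for Tgfbi in the same 4 tissues.

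The makeup of the phagocytes moved with the sort. Macrophages, microglia and alveolar macrophages together were a median of 3.66% of the phagocytes in untagged bone (0.774 to 4.62%) and 47.5% in tagged bone (41.7 to 90.1%). The same shares were 2.98% and 88.1% in lung, 6.41% and 59.7% in liver (0 to 98.7% over its tagged samples), 23.5% and 94.3% in brain, and 22.5% and 84.2% in IIA bone. The 0 in liver came from tagged replicate 4, which had at most 3 phagocytes and was left out of the phagocyte tests. The other tagged liver samples lay at 42.4 to 98.7%. Pooled over samples, the largest tagged cluster was led by Vcam1, Ccr3 and Spic in bone (58.4% of tagged phagocytes), Ccl12 and Ptgds in brain (63.1%, with microglia at 31.0%), Cd5l, Clec4f and Vsig4 in liver (69.5%), the alveolar macrophage genes Plet1 and Ear1 in lung (86.3%) and Pf4 and Hmox1 in IIA bone (78.2%). Tagged replicate 2 alone gave 545 of the 871 macrophages in brain, 835 of 1087 in liver and 350 of 563 in bone, so these pooled shares lean on it. The 4 tagged brain samples held 417 microglia. Phagocytes outside the 3 macrophage classes were monocytes and nonclassical monocytes. In the class levels of the intracardiac samples given above, macrophages, microglia and alveolar macrophages had more Tgfbr1 and Tgfbr2 and less Tgfbi than monocytes. Those levels pool both sorts, and the microglia came from tagged samples only, so class and sort cannot be told apart in them. The part of the makeup in the differences between the sorts was not tested.

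**Figure D5:**
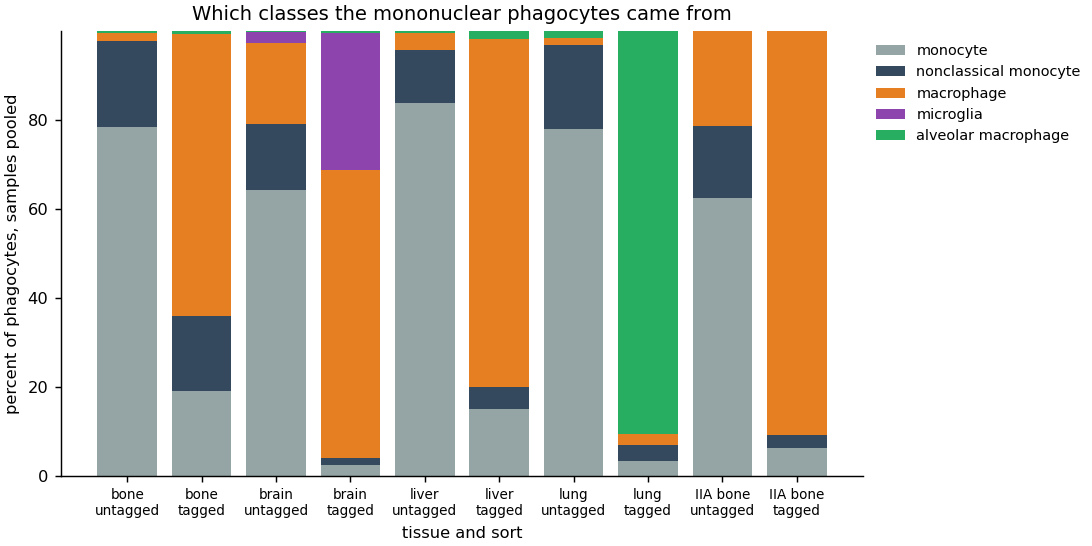
Share of each class (vertical axis, percent) among the mononuclear phagocytes of each tissue and sort, samples pooled. Tagged bars are mostly macrophage, microglia or alveolar macrophage and untagged bars mostly monocyte.

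Inside single classes of the intracardiac tissues, few differences between the sorts passed the test. Macrophage classes of bone and lung, and microglia by themselves, could not be tested, because too few untagged samples held at least 10 such cells. Only 1 untagged lung sample had enough alveolar macrophages, and only 1 untagged bone sample enough macrophages. The fits below therefore leave out the largest tagged phagocyte clusters of bone and lung. Over 21 such fits, which also include macrophages joined with microglia and alveolar macrophages, 1 of 129 tests of the 8 genes passed the threshold, against 103 of 107907 tests of all genes (0.0955%), and 17 of the 21 fits called no gene at all. The median size of the log2 difference of the 8 genes was 0.21. In lung monocytes the differences lay between -0.31 and 0.16, for example -0.06 ± 0.35 for Tgfbr1 and -0.02 ± 0.15 for Tgfbi (edgeR adjusted p = 1 for each). In brain macrophages joined with microglia, Tgfbr2 was at 0.52 ± 0.21 (adjusted p = 0.391), Tgfbr1 at 0.11 ± 0.46 (0.988) and Tgfbi at -0.79 ± 0.47 (0.581). In liver macrophages Tgfbr2 was at 0.93 ± 0.36 (adjusted p = 1), with an interval of 0.23 to 1.64. The 1 call ran against the joined phagocytes: in brain macrophages without microglia, Tgfbr1 read 132, 91.6, 144 and 114 CPM in tagged and 408, 178, 241 and 262 in untagged samples, a fall of 1.26 (log2 difference -1.26 ± 0.26, edgeR adjusted p = 0.0421, 1.19% of 4201 genes called). That call held in 1 of the 8 fits that leave out a sample. In bone early granulocyte precursors Tgfbi was at -0.77 ± 0.22 (adjusted p = 0.355), and with the replicate number as a block it was at -0.89 (adjusted p = 0.00694). The share of the 9418 genes called there was 0.0637% without the block and 11.2% with it.

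IIA bone had more calls inside single classes. In neutrophils Il10ra, the ligand-binding chain, read 44.4, 85.2, 78.5, 8.88, 31.9 and 28.1 CPM in tagged and 11.7, 29.3, 24.6, 7.68, 18.1 and 8.02 in untagged injections, a rise of 1.49 ± 0.38 on the log2 scale (edgeR adjusted p = 0.0167, 10.5% of 5569 genes called). It was lost without tagged injection 2 or 3 (adjusted p = 0.0549 and 0.114). Smad7 in the same cells read 60.6, 40.1, 39.3, 44.4, 36.4 and 34.3 against 20.6, 29.3, 19.1, 16, 21.7 and 16.6 CPM, with no overlap, and rose by 0.98 ± 0.19 (adjusted p = 0.00301), a call kept in 19 of 19 settings. Tgfb1 rose in immature neutrophils by 0.44 ± 0.12 (adjusted p = 0.0179, 9.2% of 7855 called) and Tgfbr1 in macrophages by 0.96 ± 0.31 (0.0426, 19.9% of 5169 called), the first lost without tagged injection 3 or 6 or without the filter on low counts, and the second in 7 of the 12 fits that leave out a sample. Tgfbr2 rose in stromal cells by 1.72 ± 0.35 (adjusted p = 0.0195, 2.14% of 5194 called), which was lost without untagged injection 1, 4 or 5 or tagged injection 2, and also with the injection number as a block.

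Between untagged tissues, 2 differences over all cells passed the test. Il10ra was lower in untagged bone than in the mean of the other 3 tissues (log2 difference -1.40 ± 0.40, edgeR adjusted p = 0.0282, 9.53% of 13963 genes called), at 34.05, 18.2, 14.4 and 8.21 CPM in bone and 56.4 to 83.8 in lung. Bone lay below every lung sample but overlapped brain, at 21.7 to 71.4 CPM, and liver, at 33.98 to 60.4. Leaving out untagged bone replicate 2, 3 or 4 ended this call (adjusted p of up to 0.155). Smad7 was higher in untagged lung, by 1.31 ± 0.36 (adjusted p = 0.0344, 5.04% called), and the call was lost without lung replicate 1 (0.98, adjusted p = 0.228) or 3, bone replicate 3 or 4, or brain replicate 1 or 4. With the replicate number as a block 6 differences passed, adding bone Tgfbr2 (-0.91, adjusted p = 0.0179) and lung Tgfbr2 (0.88, 0.0189), Il10ra (1.02, 0.0352) and Tgfb1 (0.41, 0.0373), while the share of all genes called rose to 19.5% in bone and 11.1% in lung. The block also raised the calls within classes from 2 to 16 of 248 tests, and those of all genes from 0.397% to 2.05%. Deviations of untagged samples from their tissue means correlated above 0.1 in 22 of 24 same-numbered pairs from different tissues (0.013 to 0.64) and in 10 of 72 other pairs. Same-numbered libraries also shared no barcodes, as given above. Since not every pair passed 0.1 the fit without the block was kept, and its p-values leave out whatever same-numbered samples share. Within neutrophils, Il10ra read 118, 86.3, 35.7 and 66.4 CPM in lung, 60.7, 63.4, 31 and 49.6 in liver, 16.8, 57.5, 50.7 and 34.8 in brain and 30.5, 19.2, 13.9 and 13.7 in bone. Bone neutrophils were lower (-1.77 ± 0.29, adjusted p = 0.00175, 3.68% of 7091 called) in 22 of 22 settings and lung neutrophils higher (1.24 ± 0.23, adjusted p = 0.00533, 3.71% called), the second lost without lung replicate 1 (adjusted p = 0.0685).

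The other genes of both pathways, 53 in 9 lists, were read from the same fits. In lung phagocytes, where 47.3% of all genes were called, 7 of 34 tested genes rose and 14 fell, with a median log2 difference of -0.37 against 0.04 over all genes. Pmepa1 (3.92 ± 0.44) and Ski (2.08 ± 0.25), both repressors of SMAD signalling, were higher in the tagged sort. Bcl3 (-2.44 ± 0.33) and Nfil3 (-1.06 ± 0.15), both IL-10 induced regulators in macrophages, and Thbs1 (-3.76 ± 0.54), an activator of latent TGF-beta, were lower, with edgeR adjusted p-values from 0.000101 to 0.000371 over these 5 genes. Of the 8 genes listed as IL-10 induced, 6 fell and 1 rose in tagged lung phagocytes, and none of the 4 genes of IL-10 receptor signalling was called. In brain phagocytes 4 of 35 rose and 5 fell, against 36.9% of all genes called. They included Pmepa1 (2.67 ± 0.66), Ski (1.57 ± 0.29) and the co-receptor gene Eng (2.29 ± 0.59) on 1 side and Thbs1 (-3.81 ± 0.55), Nfil3 (-2.14 ± 0.49) and the SMAD anchor gene Zfyve9 (-1.40 ± 0.26) on the other, with adjusted p from 0.00102 to 0.0127.

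In bone phagocytes, where 2.73% of all genes were called, 2 of 35 rose, Itgav (1.39 ± 0.26, edgeR adjusted p = 0.0181), whose integrins release latent TGF-beta, and Ccn2 (5.37 ± 1.14, adjusted p = 0.0329), a TGF-beta induced matricellular gene, and 0 fell. Liver phagocytes, with 5.44% of all genes called, had Itgav (1.34 ± 0.27) and the inhibitory SMAD gene Smad6 (2.11 ± 0.48) higher and Socs3 (-1.60 ± 0.31), a brake on cytokine receptors, and Nfil3 (-1.92 ± 0.39) lower among 38 tested, with adjusted p from 0.0319 to 0.0426. With cluster 18 counted among the liver phagocytes, 0 of the 38 were called, and 0.244% of all genes. IIA phagocytes had 15 of 34 higher and 5 lower, against 29.1% of all genes called, led by Pmepa1 (3.88 ± 0.50), the membrane protease gene Mmp14 (4.04 ± 0.60) and the type I receptor gene Acvrl1 (1.30 ± 0.20) upward. Zfyve9 (-1.63 ± 0.25), Tyk2 (-0.86 ± 0.17) and Stat3 (-0.48 ± 0.12) led those that fell, with adjusted p from 4.43e-05 to 0.00644. Among the lists, 4 of 5 feedback repressors of TGF-beta rose and 0 fell, 4 of 8 IL-10 induced genes rose and 1 fell, and 2 of 4 genes of IL-10 receptor signalling fell. The makeup of the phagocytes given above moved with these genes too, and its part in them was not tested. In tagged IIA neutrophils 11 of 27 tested genes rose and 0 fell, with a median of 0.38 against -0.03 over all genes. In that fit 10.5% of all genes were called, 489 higher and 95 lower. The genes that rose included the SMAD repressors Skil (1.98 ± 0.27) and Ski (1.64 ± 0.24) and the mRNA decay gene Zfp36 (1.15 ± 0.21), with edgeR adjusted p from 0.000282 to 0.00168.

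Over all cells of a sample, lung had 6 of 43 pathway genes higher and 5 lower in the tagged sort, against 18.3% of all genes called, with the latent TGF-beta binding gene Ltbp2 (4.30 ± 1.00) and Ski (1.31 ± 0.31) up and Jak1 (-0.93 ± 0.18), the pseudoreceptor gene Bambi (-1.27 ± 0.32) and Smad3 (-1.77 ± 0.48) down (edgeR adjusted p from 0.0105 to 0.0346). Brain, with 3.06% of all genes called, had 1 of 39, Eng (2.21 ± 0.48, adjusted p = 0.0443), and bone and liver had 0 of 39 and 0 of 43. IIA bone had 7 higher and 13 lower of 44, where 50.2% of all genes were called, with Ltbp1 (1.94 ± 0.40), Tgfb2 (2.03 ± 0.55) and Bambi (0.58 ± 0.15) up. Going down were Ifnlr1 (-2.31 ± 0.29), which pairs with Il10rb in the interferon lambda receptor, Smad2 (-0.51 ± 0.06) and Jak1 (-0.67 ± 0.11), with adjusted p from 5.56e-05 to 0.00918 over these 6 genes.

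Over 79 means of 17 classes by tissue and sort, the genes whose log2(CPM + 1) ran most like each member were found among 7950 genes by Pearson's r, as a description over points that share libraries and depth. They were Klra2 (0.92), Sirpb1c (0.91) and Pla2g7 (0.91) for Tgfbi, Vgll4 (0.89), Elf1 (0.89) and H2-Q4 (0.88) for Smad7, and Camk1d (0.89), Laptm5 (0.86) and Trpv2 (0.85) for Il10ra. Tgfb1 ran most like Arhgdia (0.84), Usf2 (0.80) and Vac14 (0.79), Tgfbr2 like Akap8l (0.83), Peli1 (0.83) and Leng8 (0.82), and Tgfbr1 like Adam17 (0.82) and Abhd12 (0.81). Il10rb ran most like Arrdc3 (0.79), Hbp1 (0.78) and Ing4 (0.74), and Il10, whose mean of 5.74 CPM lay under the 10 CPM asked of the other genes, like Igha (0.58), C6 (0.53) and Cxcl13 (0.53).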

How the data were processed

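Values were the raw UMI counts per gene and cell that the authors deposited, made with Cell Ranger 6.1.2 (intracardiac) and 7.1.0 (IIA) per the file headers, on build mm10 per the submitters' processing notes. The intracardiac matrices were already split by sample. IIA cells were assigned here from the deposited hashtag counts (at least 10 counts and 3 times the next tag), which placed 22685 of 26666 barcodes. The matrix and the deposited key name the hashtags with different prefixes, and they were matched by number alone. No deposited cell annotation was used. Cells with at least 500 UMIs, 200 genes and at most 15% mitochondrial counts were kept and clustered in scanpy 1.11.5 on 2000 variable genes without the 8 genes (30 components, 15 neighbours, Leiden resolution 1). Clusters were named from 33 lists of 396 marker genes. Doublets were left in, and an alternative removed the 5% of cells with the highest doublet scores.

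Counts were summed per sample, or per sample and class (at least 10 cells in at least 3 samples per group), and tested with edgeR 4.0.16 (filterByExpr, TMM, quasi-likelihood test, two-sided, Benjamini-Hochberg adjustment over all genes tested, threshold 0.05) in R 4.3.3, with DESeq2 1.42.0 as an alternative. The SE is that of the log2 difference. The scripts were tested on simulated data. The 8 genes, the 9 lists of 53 other pathway genes and the tests were chosen with earlier results of these data known. Pathway genes named are the called ones, at most the 3 with the lowest p in each direction. Some genes that this rule or the naming of clusters gave are not reported here. Deviations of same-numbered samples from their group means correlated at 0.448 to 0.738 in bone, 0.213 to 0.629 in brain and 0.256 to 0.501 in liver, so the replicate numbers of the labels were taken to pair tagged and untagged samples there. The main fits nevertheless left this pairing out in every tissue. It entered only the alternative fits with the replicate number as a block. In lung (-0.0916 to 0.482) and IIA bone (0.0778 to 0.562) not every pair passed 0.1. Promoter sequences came from RefSeq GRCm38.p6, whose table matched 4 of the 8 genes (Tgfb1, Tgfbr1, Tgfbr2 and Tgfbi). Intervals of shares cover counting error only.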

Additional observations from a re-analysis of the deposited data

Results flagged for a closer look

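In 7 of 80 groups of 4 or 6 samples, 1 sample lay far from the others by Dixon's criterion, which chance gives in about 1 group in 20. For Il10 over all cells these were tagged bone replicate 2 at 37.9 CPM, tagged liver replicate 2 at 57.2 CPM, tagged lung replicate 1 at 39.1 CPM, tagged IIA injection 3 at 34.6 CPM and untagged IIA injection 3 at 2.86 CPM. Tagged liver replicate 2 was also the high sample for Il10ra, at 102 CPM, and untagged bone replicate 1 was the high sample for Smad7, at 51.9 CPM.

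The tagged against untagged difference of 1 tissue departed from the mean of the other 3 in 6 tested cases. Over all cells, Smad7 in lung departed by -2.17 on the log2 scale. Within mononuclear phagocytes, Tgfbr1 in brain departed by 1.33, Smad7 in brain by 2.31, Il10ra in lung by -1.01, Il10rb in lung by -1.48 and Smad7 in lung by -2.54.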

How the results depend on the processing

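Of 49 calls of the 8 genes, refitted under 906 alternatives, 816 refits kept the call, 90 lost it and 0 reversed it. Among the 583 results not called, 125 of 11927 refits passed the threshold and 547 changed sign. The number of the 8 genes called over all cells went from 0 to 2 in brain with DESeq2, to 1 without the filter on low counts and to 1 without the cells with the highest doublet scores, and in liver from 0 to 1 with DESeq2. Calls within classes went from 1 to 2 in bone without the filter, and in liver from 2 to 4 with DESeq2 and to 0 with cluster 18 counted among the phagocytes, an alternative chosen after seeing the data. In IIA bone they went from 9 to 12 without the filter, to 11 without the highest doublet scores and to 11 when the 8 genes were left among the variable genes. Sort differences between tissues went from 1 to 2 with DESeq2. Between untagged tissues, calls over all cells went from 2 to 5 with DESeq2, and calls within classes from 2 to 9 with DESeq2, to 9 without the filter and to 4 without the highest doublet scores. The cause of these changes was not tested. Leaving out 1 replicate at a time gave 0 to 0 calls over all cells in bone and in liver, 0 to 1 in brain, 1 to 3 in lung and 1 to 3 in IIA bone, and within classes 0 to 2 in bone, 4 to 5 in brain, 0 to 4 in liver, 5 to 7 in lung and 7 to 11 in IIA bone. It gave 0 to 2 calls of sort differences between tissues over all cells, 3 to 6 within phagocytes, 0 to 4 between untagged tissues over all cells and 1 to 6 within classes.

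With the replicate number as a block, calls became 2 over all cells and 6 within classes in brain, 2 within classes in bone, 2 over all cells and 7 within classes in lung, 3 and 9 in IIA bone, 7 for sort differences between tissues in phagocytes, and 6 and 16 between untagged tissues over all cells and within classes. In IIA bone, where the numbers were not taken as pairs, Tgfbr2 in stromal cells was at 1.53 with the block (edgeR adjusted p = 0.0947). Il10 in lung phagocytes, where the numbers were not taken as pairs either, was at -1.72 (adjusted p = 0.00209). Fits with at least 30 cells per sample could not be fitted for the scarcer classes of each tissue. Il10 is the gene most limited by depth, with 69 to 1241 UMIs over all tagged cells of a tissue.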
